A study of Mus musculus with 7 samples.

Results

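Cassette exons were followed in newborn mouse neocortex to see which of them answer to the splicing regulator PTBP1 when it is supplied in tissue that lacks its relative PTBP2. The comparison is between 2 RNA sequencing libraries from 129/BL6 mice at postnatal day 1 (P1). One library is Emx1-Ptbp2KO, a Ptbp2 knockout, and the other is Emx1-Ptbp2KO-Ptbp1KI, which adds a Ptbp1 knock-in to that knockout. A wildtype library of the same age and strain gives the reference level. They are named here knockout, knock-in and wildtype, and each is 1 library, so no difference between them has a replicate check. The members are the 176 exons of 169 genes that the authors sorted as activated or inhibited by PTBP1, alone or together with PTBP2, out of 611 listed exons of 538 genes. The value per exon and library is the inclusion level, the percentage of a gene's transcripts that contain the exon. The authors' sorting used the change between knockout and knock-in, so that change is given as a description without a test. How many reads lie behind a level is unknown.

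PTBP1 and PTBP2 are RNA-binding proteins that bind pyrimidine-rich stretches rich in cytosine and uracil, and they most often silence a nearby exon, although at some exons their presence favours inclusion. Neural progenitors contain PTBP1. It is switched off as neurons form, PTBP2 takes over in young neurons, and PTBP2 in turn declines as neurons mature, so that groups of exons change in sequence. Emx1 is active in the progenitors of cortical excitatory neurons and of some glia, and not in those of cortical interneurons, microglia or blood vessels. RNA from whole neocortex also comes from those other cells. In such tissue a changed share of cell types and a changed splicing within cells cannot be told apart. The labels do not say how Emx1 was used or whether a library pools animals, and the amounts of PTBP1 and PTBP2 and cell type markers were not analysed here.

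For each class the coding exon of at most 60 nt with the largest change, and the next by change among the remaining coding exons of at most 150 nt, are shown with their neighbours in the mature transcript. Capitals mark the exon and lower case the adjoining 30 nt of coding sequence on either side, from GENCODE M21 transcripts on GRCm38, 5′ to 3′ on the transcribed strand. The first 4 exons had a higher inclusion in the knock-in. They lie at chrX:129825927-129825947 on the plus strand (Diap2), chr2:52116668-52116745 on the plus strand (Rif1), chr5:134606046-134606081 on the minus strand (Lat2) and chr1:10059824-10059847 on the plus strand (Cspp1).
Diap2: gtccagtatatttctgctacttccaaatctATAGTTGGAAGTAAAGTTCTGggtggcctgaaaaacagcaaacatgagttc
Rif1: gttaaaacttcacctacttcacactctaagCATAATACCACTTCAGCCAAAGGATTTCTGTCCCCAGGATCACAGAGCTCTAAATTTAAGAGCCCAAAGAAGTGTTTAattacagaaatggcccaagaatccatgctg
Lat2: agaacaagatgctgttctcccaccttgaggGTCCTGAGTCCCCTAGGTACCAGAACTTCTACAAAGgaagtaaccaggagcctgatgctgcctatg
Cspp1: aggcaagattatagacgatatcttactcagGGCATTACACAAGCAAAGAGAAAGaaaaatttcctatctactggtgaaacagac

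The next 5 exons had a lower inclusion in the knock-in. They lie at chr3:142304705-142304722 on the minus strand (Pdlim5), chr5:145235737-145235863 on the plus strand (Zfp655), chr14:101460699-101460701 on the minus strand (Tbc1d4) and chr11:69946069-69946193 on the minus strand (Slc2a4). The fifth, at chr4:43161443-43161478 on the plus strand (Unc13b), was chosen after the values were seen, because the gene belongs to the synapse list. The Tbc1d4 exon is 3 nt long.
Pdlim5: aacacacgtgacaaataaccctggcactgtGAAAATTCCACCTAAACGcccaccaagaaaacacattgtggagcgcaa
Zfp655: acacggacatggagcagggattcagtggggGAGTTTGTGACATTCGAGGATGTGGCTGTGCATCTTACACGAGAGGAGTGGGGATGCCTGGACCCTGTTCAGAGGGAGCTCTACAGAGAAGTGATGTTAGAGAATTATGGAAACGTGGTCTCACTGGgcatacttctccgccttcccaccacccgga
Tbc1d4: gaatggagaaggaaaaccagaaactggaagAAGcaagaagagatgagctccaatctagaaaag
Slc2a4: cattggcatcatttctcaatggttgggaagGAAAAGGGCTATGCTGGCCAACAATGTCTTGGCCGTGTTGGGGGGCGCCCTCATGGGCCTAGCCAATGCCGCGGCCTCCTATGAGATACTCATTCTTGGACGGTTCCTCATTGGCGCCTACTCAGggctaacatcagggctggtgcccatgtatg
Unc13b: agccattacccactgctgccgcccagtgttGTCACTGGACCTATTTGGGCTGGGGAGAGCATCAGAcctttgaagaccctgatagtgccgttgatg

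More of the listed exons were lower than higher in the knock-in. Of the 176 exons, 108 were lower than in the knockout (61.4%) and 68 were higher, a count over exons of 2 libraries and not over replicates. Among all 611 listed exons, 17.7% were lower and 11.1% were higher by at least 10 percentage points, 28.8% together; the sorting set these shares. Among the exons that the authors list under both proteins 61 were inhibited and 24 activated. The exons listed under PTBP2 alone were 357 inhibited and 78 activated, so the excess of inhibited exons was relatively larger there. The excess under both proteins is therefore not particular to the knock-in change. Those listed under PTBP1 alone were nearly balanced, 47 inhibited and 44 activated.

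The changes were mostly modest. In the 68 exons that were higher the median level was 42.6% in the knockout against 64.6% in the knock-in, and the median change was 14.4 points (95% order-statistic interval 13.1 to 16.2). In the 108 that were lower the medians were 64.9% and 49.6%, with a median change of -13.2 points (-14.0 to -12.3). A change of at least 20 points was seen in 14 higher and 16 lower exons, and one of at least 30 points in 4 and 2. The listed exons nearest the 10-point limit lay close on either side of it. A Lyrm5 exon was inside at 10.01 points and a Ddr1 exon outside at 9.97, and for lower inclusion an Rpain exon was inside at -10.04 points and a Trpm7 exon outside at -9.85.

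**Figure D1:**
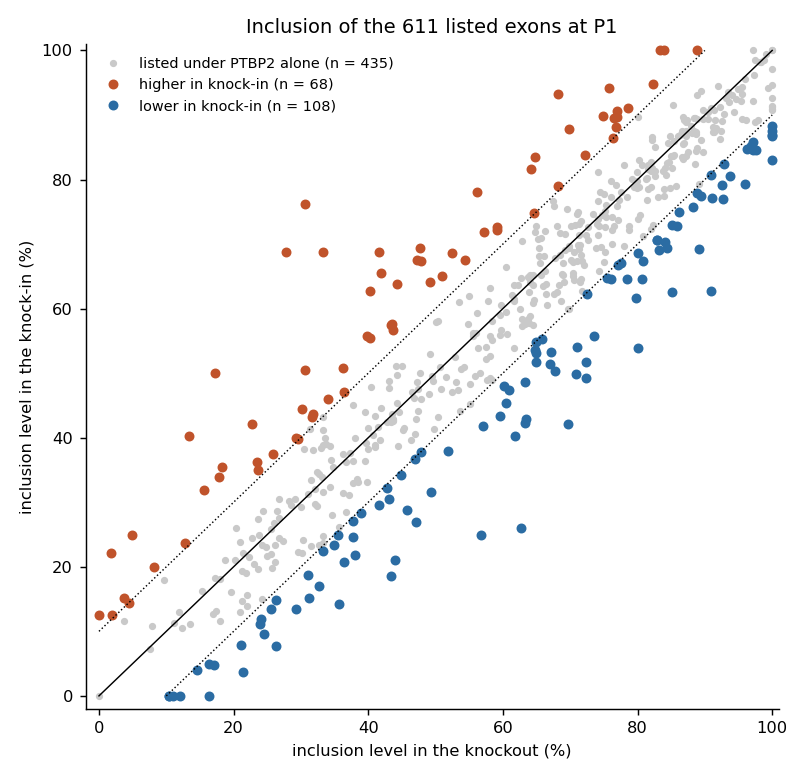
Inclusion level in the knock-in (y axis, %) against the knockout (x axis, %) for the 611 listed exons, 1 library each; the solid line marks equal levels and the dotted lines a change of 10 points. The 68 higher and 108 lower exons lie outside the dotted lines by the authors' sorting, and most of them within 20 points of the solid line.

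The smallest class holds exons whose inclusion the authors list as activated by both proteins. These 24 exons of 22 genes had a median level of 43.1% in the knockout against 66.5% in the knock-in, with 66.1% in the wildtype. The widest gap was in Armcx1, which encodes a mitochondrial outer membrane protein of neurons. Its 92-nt untranslated exon (GRCm38 chromosome X, 134718370 to 134718461) was at 30.6% in the knockout against 76.2% in the knock-in, a change of 45.6 points with p = 3.07e-39 in the authors' deposited table. A 72-nt partly coding exon of the homeobox gene Prrx1 (chromosome 1, 163253977 to 163254048) followed, at 27.8% and 68.8%. The 21-nt exon of Diap2, a formin that builds actin filaments, was at 33.3% in the knockout against 68.8% in the knock-in. The authors' deposited table gives p = 0.000186 for Prrx1 and p = 0.00913 for Diap2.

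Further exons of this class belong to nuclear and degradation genes. The 78-nt coding exon of Rif1, a protein of DNA replication timing and break repair, was at 41.9% in the knockout against 65.6% in the knock-in. An untranslated 53-nt exon of Atg7, an activating enzyme of autophagy, was nearly absent from the knockout at 1.85% and present at 22.2% in the knock-in, with 15.6% in the wildtype. The 162-nt coding exon of Ctbs, a lysosomal enzyme of glycoprotein breakdown, lies opposite another annotated gene and was at 40.2% in the knockout and 62.8% with the knock-in. An untranslated exon of the zinc finger gene St18 was at 13.3% and 40.3%. An exon of the osmotic stress factor Nfat5, found in annotated targets of nonsense-mediated decay (NMD), was at 30.6% and 50.5%. In the knock-in these 8 exons were at most 12.1 points from their wildtype level. Over the class 14 of the 24 were within 5 points and 5 were at least 10 points away. The 2 exons of Aen were farthest, at 63.9% and 67.4% in the knock-in with wildtype levels of 98.7% and 98.9%. The gaps from knockout to wildtype and from knockout to knock-in share the knockout library, so a low or high value in it enters both.

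The 44 exons of 43 genes listed as activated by PTBP1 alone ended above their wildtype level. Their median was 46.5% in the wildtype and 42.5% in the knockout, against 57.1% in the knock-in, which was above the wildtype in all 44; the limits of 10 points on both changes leave no other outcome. The median change was 13.1 points (11.9 to 14.6) and 7 exons changed by at least 20. A 71-nt untranslated exon of Galnt13, an enzyme that starts O-linked glycosylation, was at 17.9% in the wildtype and 17.2% in the knockout, against 50.0% in the knock-in. Its position is chromosome 2, 54477648 to 54477718. The Lat2 exon of 36 nt, from an adaptor gene of immune receptor signalling, went from 41.7% to 68.8%.

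A myelin gene is also in this class. A 45-nt partly coding exon of Mag, the myelin-associated glycoprotein made by oligodendrocytes (chromosome 7, 30900352 to 30900396), was at 73.3% in the wildtype and 68.2% in the knockout, against 93.2% in the knock-in. How many oligodendrocytes each library holds was not analysed here. The 24-nt exon of Cspp1, a centrosome and cilium gene, went from 56.1% to 78.1%. A 21-nt coding exon of the potassium channel gene Kcnt2 lies opposite another annotated gene and was 20.1 points above its knockout level of 4.92%. An exon of Uggt2, a glucosyltransferase of glycoprotein folding control, annotated in NMD transcripts, went from 47.2% to 67.6%. The eighth, a 195-nt coding exon of the centrosome gene Tbc1d31, went from 22.7% to 42.2%.

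The smallest p-values in this class did not go with the widest gaps. Of its exons, 6 had a p below 1e-05 and above 0 in the authors' deposited table. A 115-nt untranslated exon of the chromatin gene Hmga1 had p = 1.46e-40 in the authors' deposited table and was at 8.20% in the knockout against 19.9% in the knock-in. A 75-nt coding exon of Dmwd (p = 7.71e-32 in the authors' deposited table) was at 29.3% in the knockout and 10.7 points higher in the knock-in, and the 45-nt untranslated exon of the splicing factor gene Hnrnph2 (p = 1.12e-14 there) at 43.6% and 56.7%. Dmwd and Hnrnph2 were picked for their p after the values were seen. The Galnt13 exon, with the widest gap, had p = 0.00962 in the authors' deposited table.

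One PTB gene itself is in the class. A 34-nt coding exon of Ptbp3, the third PTB paralogue, at chr4:59546149-59546182 on the minus strand, was at 23.0% in the wildtype and 30.2% in the knockout, against 44.4% in the knock-in (p = 0.0238 in the authors' deposited table). Its level was higher in both mutant libraries than in the wildtype. Its length is not divisible by 3, so the reading frame after it differs between transcripts with and without it. Which of them keeps the frame was not analysed here. The exon is shown, in capitals, because the gene belongs to the PTB family.
Ptbp3: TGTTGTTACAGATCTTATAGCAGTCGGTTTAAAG

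**Figure D2:**
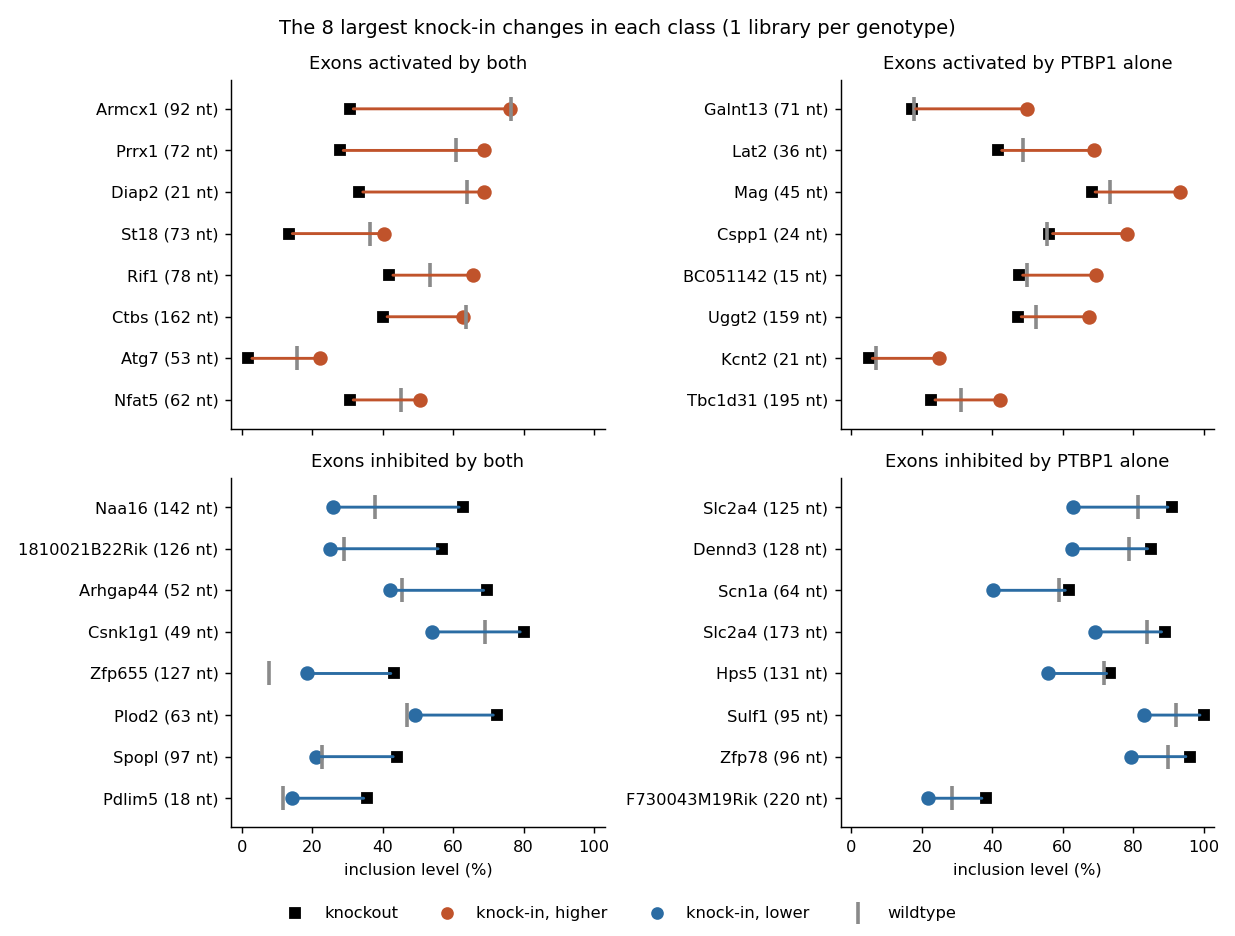
Inclusion level (x axis, %) of the 8 exons with the largest knock-in change in each of the 4 classes, with the knockout as a black square, the knock-in as a coloured circle and the wildtype as a grey bar, 1 library each. Armcx1 goes from 30.6% to 76.2% beside a wildtype level of 76.4%, while Galnt13 goes from 17.2% to 50.0% with a wildtype level of 17.9%.

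The largest class holds exons listed as inhibited by both. The 61 exons of 59 genes had a median level of 60.2% in the knockout against 42.1% in the knock-in, with 36.4% in the wildtype. The median change was -15.05 points (-16.1 to -13.4), and 13 exons changed by at least 20. A 142-nt exon of Naa16, an auxiliary subunit of an N-terminal acetyltransferase, had the widest gap (chromosome 14, 79350689 to 79350830, annotated in NMD transcripts). It was at 62.7% in the knockout against 26.0% in the knock-in, below its wildtype level of 37.8%. A 126-nt exon of the non-coding 1810021B22Rik followed, at 56.8% in the knockout with a change of -31.8 points. Single p-values of this class are left out, since its p-value columns appear exchanged.

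The next exons of the class by size include those of a kinase and of a cytoskeletal protein. A 52-nt exon of Arhgap44 (chromosome 11, 65005454 to 65005505) was at 69.7% in the knockout against 42.1% in the knock-in. An untranslated 49-nt exon of the casein kinase gene Csnk1g1 went from 80.1% to 54.0%. The 18-nt exon of Pdlim5, a PDZ and LIM domain protein of the actin cytoskeleton, went from 35.6% to 14.3%, with 11.6% in the wildtype. The wildtype levels of the first 2 were 45.5% and 68.9%, both above the knock-in.

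Enzymes of protein modification are also in the class. A 63-nt coding exon of the collagen lysyl hydroxylase Plod2 (chromosome 9, 92601985 to 92602047) was at 72.4% in the knockout against 49.2% in the knock-in. The exon of Spopl, an adaptor of a cullin ubiquitin ligase, annotated in NMD transcripts, went from 44.0% to 21.01%. The zinc finger gene Zfp655 had 2 coding exons, one of 127 nt that went from 43.3% to 18.6% and one of 86 nt that went from 31.2% to 15.1%. Their wildtype levels were 7.75% and 8.02%, so both stayed above it. Over the class, 38 of the 61 exons were within 5 points of the wildtype in the knock-in and 11 were at least 10 points away. Exons of Stam2 and Slc4a10 were farthest, 43.1 and 41.7 points above it. Here too both gaps share the knockout library.

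The 47 exons of 45 genes listed as inhibited by PTBP1 alone started high. Their median was 77.3% in the wildtype and 77.6% in the knockout, against 64.8% in the knock-in, and 23 of them were above 80% in the knockout. The glucose transporter gene Slc2a4, whose product responds to insulin, had the largest change. Its 125-nt coding exon was at 90.9% in the knockout against 62.8% in the knock-in (p = 0.00421 in the authors' deposited table), and a coding exon of 173 nt (chromosome 11, 69946286 to 69946458) was at 89.1% and 69.2%. The 3-nt exon of Tbc1d4, a Rab GTPase-activating protein that acts in transport of that glucose transporter, was at 29.2% and 13.4%; it is named for its sequence.

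Several exons of this class are annotated in NMD transcripts, 10 of 47. The 64-nt exon of Scn1a, a voltage-gated sodium channel (chromosome 2, 66293832 to 66293895), is one of them, at 58.8% in the wildtype and 61.8% in the knockout, against 40.3% in the knock-in. Exons of the Rab activator Dennd3 (85.1% and 62.6%) and of Hps5, a gene of lysosome-related organelles (73.5% and 55.8%), are 2 others. An untranslated exon of the heparan sulfatase Sulf1 was at 100% in the knockout and 83.0% with the knock-in. The other 2 of the 8 largest were a coding exon of the zinc finger gene Zfp78 (96.0% and 79.3%) and an exon of the non-coding F730043M19Rik (38.1% and 21.8%), which lies opposite another annotated gene. Levels of 0 or 100% occurred in the knockout or the knock-in of 14 of the 176 exons, 6 of them in this class.

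Of 107 genes on a list of splicing and RNA-binding genes, 9 had 12 listed exons, of which 3 changed in the knock-in, all of them lower and all listed under PTBP1 alone. That is 25% of the 12, near the 28.8% of all listed exons. Hnrnph2 and Ptbp3, which were higher, are not on this list. The exon of the nuclear speckle protein Son (chromosome 16, 91674695 to 91674774), annotated in NMD transcripts, was at 37.7% in the knockout against 24.6% in the knock-in (p = 1.20e-22 in the authors' deposited table). A 74-nt coding exon of the splicing regulator Rbm5 was at 80.1% and 68.7%, further from its wildtype level of 89.8%. A 1049-nt exon of Mbnl1, a splicing factor of muscle and brain, was at 100% and 86.7%.

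Genes on 5 neuronal and cytoskeletal lists made up few of the exons that changed in the knock-in. The lists do not hold every such gene. Kcnt2 (20.1 points) and Pdlim5 (-21.3 points), described above, are on none of them, so the counts are for the lists only. Of 26 listed exons on the list of synapse and ion channel genes, 4 changed in the knock-in (15.4%), all lower. Of 17 listed exons of actin, adhesion and polarity genes 1 changed, the Diap2 exon, and of 9 exons of microtubule and motor genes 1, in the mitotic kinesin Kif2c (17.02% and 4.85%). Of 16 vesicle traffic exons 2 changed, both lower, in the endosomal sorting gene Stam2 (60.2% and 48.0%) and in the dynein adaptor Bicd1 (96.9% and 85.2%). Of 8 exons of axon growth genes 2 changed, both lower. Over these 5 lists 10 of 76 exons changed, or 13.2%, against 28.8% of all listed exons. The median absolute change was 3.28 points in the 76 exons and 4.90 in all 611. The lists were written with earlier results of these data known, which named mostly genes whose exons follow PTBP2 alone, so the lower share is not independent of that choice.

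The 4 changed exons on the synapse and ion channel list differed in size of change. A 138-nt exon of the bicarbonate transporter Slc4a10, in a non-coding transcript, was at 72.4% in the knockout against 51.7% in the knock-in, far above the wildtype level of 9.96%. The 36-nt exon of Unc13b, which primes synaptic vesicles for release, was at 43.8% in the wildtype and 57.1% in the knockout, against 41.9% in the knock-in. A 28-nt exon of the membrane fusion gene Stx2, in a non-coding transcript, was at 47.0% and 36.8%. Scn1a is the fourth.

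On the other lists, chromatin and transcription genes had 10 listed exons, of which those of Prrx1 and Hmga1 changed, both higher. That list is not complete either. The transcription coactivator Ncoa6, which was lower (-13.1 points), and Nfat5, which was higher (19.8 points), are not on it. Genes of this kind thus had exons in both directions, and the shared direction holds for the list only. Signalling genes had 6, of which 1 changed, in Fgfr2, a fibroblast growth factor receptor, whose 78-nt coding exon was at 50.9% in the knockout against 65.1% in the knock-in (chromosome 7, 130241200 to 130241277). Fgfr2 and Ptbp3 were also the 2 changed exons among 13 of genes listed as known PTB targets (15.4%). The changed share was 20% on the chromatin list and 16.7% on the signalling list, beside 28.8% of all listed exons. Each rests on few exons.

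**Figure D3:**
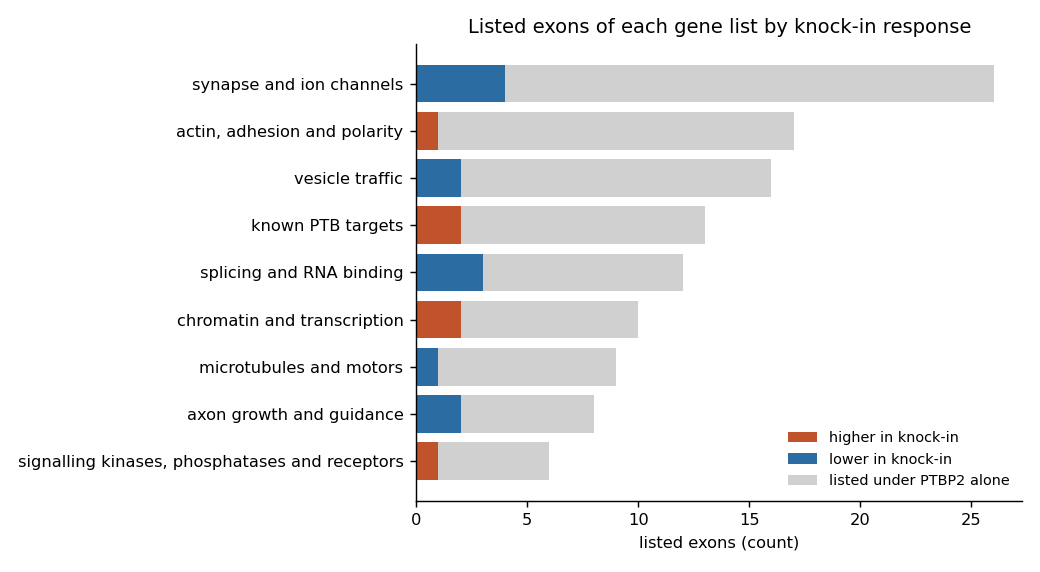
Number of listed exons (x axis) of the genes of each list, split into exons higher in the knock-in, lower in the knock-in and listed under PTBP2 alone. The list of PTB proteins, with 1 listed exon, is not drawn. Grey fills most of each bar drawn; of the 26 synapse and ion channel exons 4 are coloured.

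Exons of the same gene differed in their change in some genes and were close in others. Of the 169 genes, 7 had 2 exons among the 176, 0 had exons in both directions, and 17 had another exon listed under PTBP2 alone. In Usp1 and Depdc5 an exon listed under PTBP2 alone overlaps the member exon. In Csnk1g1 the untranslated exon went from 80.1% to 54.0% while a 24-nt coding exon was at 53.0% in the knockout against 48.6% in the knock-in. The Slc4a10 exon of 138 nt changed by -20.7 points and a 39-nt exon of that gene by -3.11. In Alg9, a mannosyltransferase of glycosylation, a 102-nt coding exon was at 16.4% in the knockout against 0% in the knock-in, and a 71-nt coding exon was at 69.2% and 71.6%. A similar pair was found in Rapgef6, an activator of Rap GTPases, where a 303-nt exon changed by -14.7 points and a 24-nt exon by 1.66. In Akap13, an anchor of protein kinase A, a 54-nt and a 66-nt coding exon were close, with changes of -13.3 and -9.77 points. The exons listed under PTBP2 alone could not have changed by more than the sorting allows.

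Some exons of 1 gene overlap and cannot count as separate events. The 2 Armcx1 exons share their start, and the second, of 449 nt, was at 64.7% in the knockout against 83.5% in the knock-in. The 2 exons of the exonuclease gene Aen share their end and changed by 19.6 points each, and those of Ccdc40, a gene of motile cilia, differ by 3 nt. In Usp1 and Depdc5 the overlapping exons share their end but fall on either side of the 10-point limit. They changed by -13.9 and -9.54 points in Usp1 and by -10.6 and -5.3 points in Depdc5. The mitochondrial carrier gene Slc25a14 had separate exons of 45 nt and 48 nt, at 31.6% and 34.0% in the knockout and 43.3% and 46.0% in the knock-in.

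Exon length, which the sorting did not use, was shorter at the median in the higher exons. Exons that were higher in the knock-in had a median length of 78 nt (68 to 92), against 119.5 nt (100 to 128) for those that were lower. Of the higher exons 23 of 68 had at most 60 nt (33.8%), and of the lower 14 of 108 (12.96%). The gap lay with the exons listed under PTBP1 alone, where 19 of 44 activated exons (43.2%, 28.3 to 59.0) and 3 of 47 inhibited exons (6.38%, 1.34 to 17.5) were that short. Among exons listed under both proteins there was no such gap, with 16.7% of the activated and 18.03% of the inhibited exons. All 611 listed exons had a median of 92 nt with 25.4% of at most 60 nt, and those inhibited by PTBP2 alone 85 nt with 28.0%. Pooled by direction, the higher exons thus lay on the short side of the listed exons and the lower ones on the long side. Exons activated by both proteins did not lie on the short side, with a median of 94.5 nt. Among 165262 internal coding exons of GENCODE M21 the median was 123 nt and 8.92% had at most 60 nt. The order held in fully coding exons alone, with medians of 78 nt and 113 nt. Intervals treat exons as independent, and no test was made over exons.

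**Figure D4:**
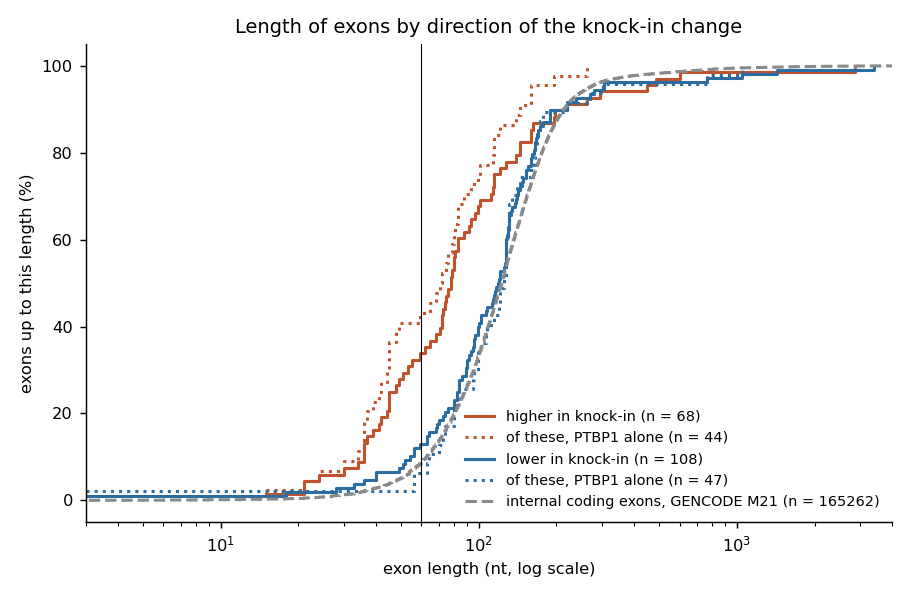
Cumulative share of exons (y axis, %) by length (x axis, nt, log scale) for exons higher and lower in the knock-in, for those of each listed under PTBP1 alone, and for internal coding exons of the annotation; the vertical line marks 60 nt. At that line the activated exons of PTBP1 alone have reached 43.2% and the inhibited ones 6.38%.

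Exons of at most 30 nt numbered 8 of the 176, 5 higher and 3 lower. Among all 611 listed exons there were 59, of which 46 were among the 357 inhibited by PTBP2 alone. Beside Diap2, Cspp1 and Kcnt2 the higher ones were a 15-nt exon of BC051142 (47.6% in the knockout against 69.4% in the knock-in) and a 30-nt exon of Mdm1, a centriole protein (12.8% and 23.7%). Those that were lower are the exons of Tbc1d4, Pdlim5 and Stx2 described above. Mdm1 is named for its length.

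Of the 176 exons 90 lie fully within coding sequence (51.1%), against 64.2% of all 611 listed exons. The share was 57.4% of the higher and 47.2% of the lower exons. Exons annotated only in NMD or non-coding transcripts were 8 of 68 higher and 29 of 108 lower exons, against 96 of all 611. Of the 90 coding exons 50 had a length divisible by 3 (55.6%, 44.7 to 66.0), against 41.1% of internal coding exons in the annotation. Over all listed coding exons it was 70.2%, and over those inhibited by PTBP2 alone 76.5%, so the members lay between. Among them the share was 56.4% in higher and 54.9% in lower coding exons. The other 40 shift the reading frame when they are skipped or included.

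Within the exons, pooled by direction, a short PTB motif stood about as often as in the annotation, but its density differed by class. The motif TCTT (UCUU in the RNA, searched on the transcribed strand, overlaps counted) stood 0.410 times per 100 nt in the higher and 0.440 times in the lower exons, against 0.487 in all listed exons and 0.407 in internal coding exons of the annotation. Among exons of 60 to 150 nt, 10 of 33 higher (30.3%, 15.6 to 48.7) and 27 of 65 lower exons (41.5%, 29.4 to 54.4) held it, as did 37.9% of all listed and 34.4% of annotated exons of that length. CTCTCT, which holds no TCTT, was found in 1 of those 98 exons and in 3.29% of annotated ones. By class, TCTT stood 0.606 times per 100 nt in exons activated by PTBP1 alone and 0.306 times in those activated by both. The density was 0.523 in exons inhibited by PTBP1 alone and 0.388 in those inhibited by both. Long exons weigh most in these densities, such as a Zhx1 exon of 2859 nt with 13 TCTT and a Plec exon of 3381 nt with 1. Among exons of 60 to 150 nt, TCTT was in 9 of 21 activated by PTBP1 alone and in 1 of 12 activated by both. It was in 13 of 31 inhibited by PTBP1 alone and in 14 of 34 inhibited by both. PTB proteins are known to bind mostly in the introns beside an exon, which were not analysed here.

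Levels at other ages were used for 10 of the exons, all inhibited by both proteins, from BL6 neocortex of 2 embryonic ages (E14, E17) and 2 postnatal ages (P2, P10), named by day. All 10 were lowest at E14 and 7 were highest at P2. Their medians were 16.7%, 36.9%, 57.8% and 42.4% at the 4 ages, and 40.6%, 61.8% and 42.4% in the P1 wildtype, knockout and knock-in. Age and strain differ between the sets, and each age is 1 library, so the values stand side by side only. The study put these exons in 1 cluster for their levels by age, so the shared course is not independent evidence.

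The knock-in ended near different ages in different exons. The Naa16 exon, at 26.0% in the knock-in, was below its level of 39.7% at E14. The Plod2 exon went through 6.90%, 32.0%, 64.6% and 39.0% over the ages in that order, against 49.2% in the knock-in. For the Stx2 exon these ages gave 9.33%, 32.6%, 64.5% and 31.3%, against 36.8%. The knock-in was above E14 in 8 of the 10 exons and below P2 in 8, while the knockout was above P10 in 8. An untranslated exon of the transcription coactivator Ncoa6 was higher at each later age, from 18.5% at E14 to 60.7% at P10, and was at 64.8% in the knockout against 51.8% in the knock-in. The Unc13b exon, at 24.0%, 38.8%, 38.6% and 39.1% at the 4 ages, had a knock-in level of 41.9%, close to its later ages.

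**Figure D5:**
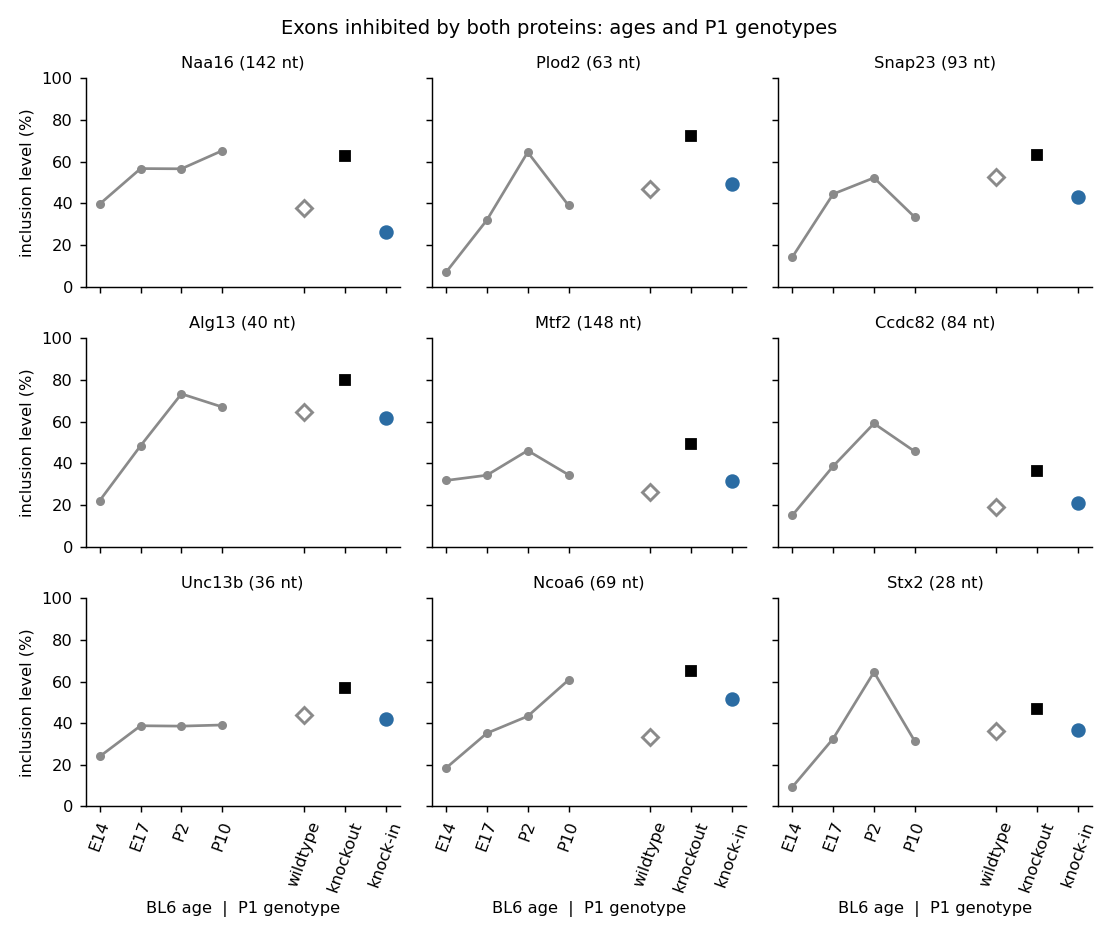
Inclusion level (y axis, %) of 9 of the 10 exons inhibited by both proteins with levels at 4 ages in BL6 (grey line) and in the P1 wildtype (open diamond), knockout (black square) and knock-in (blue circle), 1 library each. Every blue circle lies below its black square, as the sorting requires, and the Naa16 circle, at 26.0%, lies below its E14 level of 39.7%.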

How the data were processed

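Neocortex RNA was extracted with TRIzol and made into strand-specific libraries, per the labels' protocols. The submitters' processing notes name STAR, with no version, and the build GRCm38 (mm10). The sources used here do not say how inclusion was computed or which test gave the p-values. Inclusion ratios are deposited as a fraction from 0 to 1 for each exon in each library, per the file headers, and were multiplied to percent. The authors also deposited the difference of 2 ratios, a signed score per exon, which the recomputed differences equal (largest gap 0 points). The authors' deposited p-values are given for some of the named exons only, and a deposited p of 0 is not printed. Outside the class inhibited by both, each p of 0 went with a level of 0 or 100% in the knockout or knock-in. In the class inhibited by both, the smaller p belonged to the larger change in 3 of 56 exons, against 21 of 22 to all exons elsewhere, so its 2 columns were taken as exchanged and its p-values left out. The column headed DM was taken as Emx1-Ptbp2KO-Ptbp1KI, the P1 genotype left after the other 2.

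Change is knock-in minus knockout in percentage points. Shares given with an interval carry 95% Clopper-Pearson and medians 95% order-statistic intervals over exons; they cover no error of single levels, whose depth is unknown. Of the 176 exons 175 matched an exon of GENCODE M21 exactly; 16 overlap another annotated gene. Named were the 8 largest changes per class, members of 10 gene lists (605 genes), genes with several listed exons and exons with levels by age; exons of a few genes under this rule are left out. The members and lists were chosen with earlier results of these data known. Python 3.11.15 was used with pandas 2.3.3, scipy 1.17.1, numpy 2.4.6 and, for plots, matplotlib 3.10.9; the summaries were tested on simulated data.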

Additional observations from a re-analysis of the deposited data

How the results depend on the processing

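Leaving out exons at 0 or 100% or exons that overlap another gene, or keeping 1 exon per gene, left both counts within 1.5 times and the share of lower exons within its interval. With a minimum change of 20 points 14 exons were higher and 16 lower (53.3% lower), and among exons listed under PTBP1 alone 51.6% were lower. With a deposited p above 0 and below 0.001, and without the class inhibited by both, 27 were higher and 13 lower; leaving out that class removes lower exons alone. The means were 16.7 and -14.8 points. On a logit scale with levels limited to 1 and 99%, 3 of the 10 largest higher changes and 0 of the 10 largest lower changes were shared with those in points; 4 and 10 of the logit ones involve a level of 0 or 100%. In coding exons alone 54.9% of the lower exons had a length divisible by 3. The other 22 values did not move beyond their limits. The limit p below 0.001, PTBP1 alone as a set and the motif within exons were chosen after the data were examined. Motif counts in flanking introns, planned with a shorter and a longer window, were not run, since no genome sequence was used. No paired analysis was possible because each genotype has 1 library. Depth is unknown, so exons of rare transcripts cannot be told from well-covered ones.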

Other observations

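Genes of the cilium and centrosome, chosen after the values were seen and without a test, had exons in both directions. The 10 genes were picked from among the members and had 11 exons, 6 higher and 5 lower, so these counts say nothing of how often such genes change. A coding exon of Rpgrip1l, a gene of the ciliary transition zone, was at 82.2% in the knockout against 94.9% in the knock-in. Coding exons of the centrosome genes Kiz and Sfi1 were at 76.7% and 88.2%, and at 43.6% and 57.6%. On the lower side, a 96-nt coding exon of Spata7, a gene of the photoreceptor cilium, was at 70.9% and 49.9%, and a 33-nt exon of the centrosome gene Cep63 at 31.1% and 18.8%. An untranslated exon of Bbs9, a subunit of a ciliary transport complex, was at 37.8% and 27.1%.

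Enzymes of glycosylation and collagen modification, picked in the same way, had 8 exons, 2 higher and 6 lower, beside 2 exons listed under PTBP2 alone. Beside those already described, an exon of Alg13 was at 79.8% in the knockout against 61.7% in the knock-in, one of Fut10 at 24.5% and 9.59%, one of Hs3st5 at 34.9% and 23.4%, and one of P3h1 at 65.8% and 55.3%. A group of zinc finger genes, also picked from among the members, had 10 exons, 3 higher and 7 lower. Exons of the zinc finger genes Zfp879, Zfp202 and Zbtb20 went from 100% to 88.2%, from 90.9% to 80.7% and from 26.3% to 14.8%. Those of Zfp112 and Zfp688 were higher in the knock-in, from 77.0% to 89.7% and from 64.6% to 74.8%.

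Exons listed under PTBP2 alone also differed between knockout and knock-in, by less than 10 points. Of the 357 inhibited by PTBP2 alone 257 were lower in the knock-in, 87 of them by 5 to 10 points, and of the 78 activated 61 were higher, 27 of them by 5 to 10 points. The inhibited exons were listed for a high and the activated ones for a low knockout level against the wildtype, and the same knockout library is the reference here. The direction of these counts is therefore not independent of the listing and is not read as an effect of PTBP1. The authors' deposited table gives p below 0.001 for 38 and 6 of these exons. A 63-nt coding exon of the membrane skeleton gene Sptan1 was at 4.39% in the wildtype, 17.3% in the knockout against 13.2% in the knock-in, with p = 1.94e-35 in the authors' deposited table. Coding exons of the mitochondrial fission factor gene Mff, of 60 nt and 159 nt, changed by -6.60 and -7.77 points. A 111-nt coding exon of the glutamate receptor subunit gene Grin1 was higher in the knock-in, going from 60.5% to 66.4%, with p = 2.50e-05 in the authors' deposited table.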
